A study of Mus musculus with 12 samples.

Results

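Cultured microglia, the macrophages of brain tissue, were compared after 6 h with lipopolysaccharide (LPS) and after 6 h in Media alone, gene by gene. LPS is a cell wall component of Gram-negative bacteria. The LPS group held 4 libraries of cells given 50 ng/mL LPS, and the Media group held 4 libraries of cells given the same volume of growth medium. Cells of both groups were taken from the forebrain of mouse pups at postnatal day 7 to 9. They were captured with magnetic beads against CD11b, a surface integrin of myeloid cells, and plated at 40000 to 80000 per well. Strain, sex and genotype are not in the labels. Nor do they tie each library to its own animal, litter or culture, so the spread behind each p-value is that among these libraries and may be technical. The series holds 12 libraries. The other 4, of cells given 500 nM Hevin, an astrocyte protein, entered no comparison here. Of 14541 genes listed, 10870 reached at least 1 FPKM in at least 4 of the 8 libraries and form the comparison. FPKM is a read count divided by gene length and by library size, so levels of different genes can be set side by side.

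LPS is bound by CD14 and handed to the pair of Toll-like receptor 4 (Tlr4) and MD-2 (Ly96) on the cell surface. One arm of signalling runs through the adaptor MyD88 and the IRAK kinases to NF-kB and the MAP kinases, which switch on cytokine and chemokine genes. The other arm runs from endosomes through the adaptors TRAM (Ticam2) and TRIF (Ticam1) to the kinase TBK1 and to interferon beta, which acts back on the cells through its receptor and STAT proteins and induces interferon-stimulated genes. Microglia are among the brain cells that respond to LPS directly, and cells held in culture lose part of the expression pattern they have in the brain.

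The 8 libraries held 18343996 to 27263115 reads in listed genes, recovered as whole reads from the FPKM values. LPS and Media libraries were deposited on different scales: the scaling factors the authors had applied ranged from 0.804 to 0.897 over the LPS libraries and from 1.02 to 1.11 over the Media libraries. FPKM summed to 414956 to 430248 in LPS and to 319069 to 330239 in Media. Genes that rose at least 4-fold took 7.93% to 12% of reads in LPS and 1.41% to 2.24% in Media. The deposited scale was kept for all values below. Undoing the factors lowered the median log2 fold change of all genes tested by 0.28 and turned 51.3% of calls higher into 14.9%, so directions of small changes are relative to this scale. That share was 39.2% after upper quartile scaling and 40.8% after quantile normalization. Of the genes named below that missed the test, 25 were called with the factors undone, all of them lower in LPS. After quantile normalization 19 were called, 18 of them lower.

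**Figure D1:**
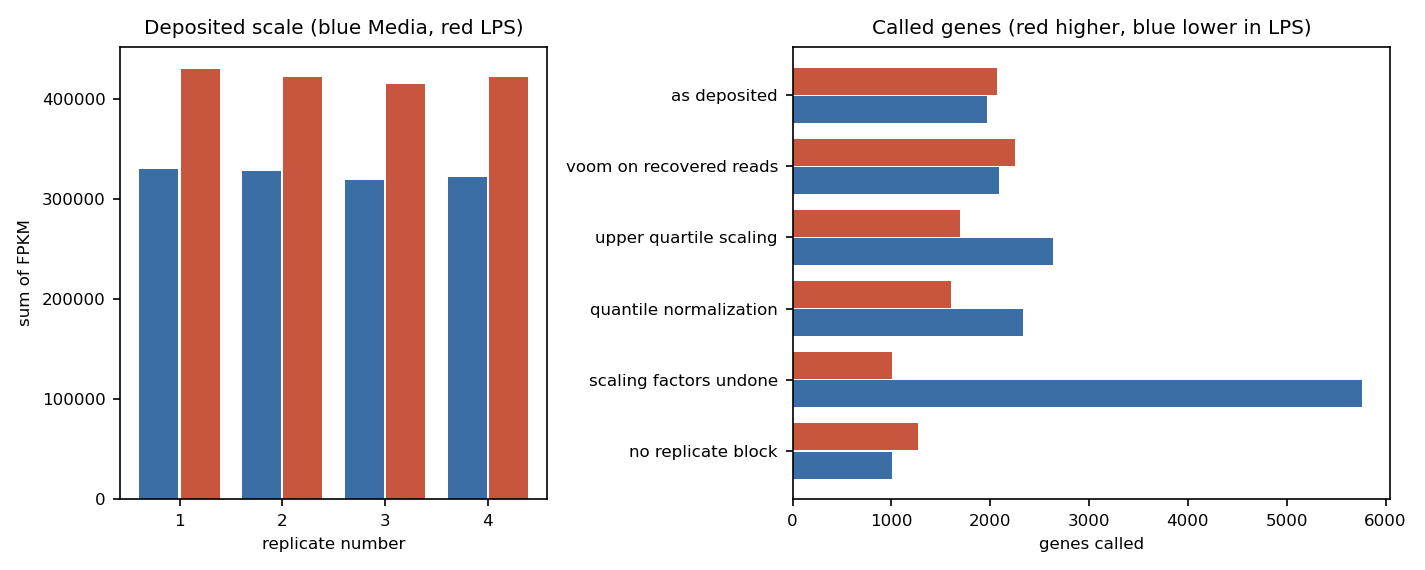
Left, the sum of FPKM of each library by replicate number, Media in blue and LPS in red: all 4 LPS bars stand above all 4 Media bars. Right, the number of genes called higher (red) and lower (blue) in LPS under each scaling and with no replicate block; bars start at 0, and only the undone scaling gives several times more lower than higher calls, with 1006 higher and 5762 lower.

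Markers of macrophage identity were present in all 8 libraries. The 13 markers summed to 1471 to 1681 FPKM in Media and 1371 to 1717 in LPS, with C1qb at 361 ± 30.8 FPKM in Media and 367 ± 39.4 in LPS. Genes that set microglia apart from other macrophages in the brain were low: Tmem119 had 1.39 ± 0.245 FPKM in Media and 1.12 ± 0.741 in LPS, and P2ry12 10.4 ± 4.59 FPKM in Media and 13.1 ± 4.94 in LPS. Markers of border macrophages, which CD11b beads also capture, summed to 885 to 1042 FPKM in Media and 752 to 940 in LPS. The libraries numbered 2 stood apart in both groups. Their 9 listed neutrophil markers summed to 2058 FPKM in Media 2 and 2062 in LPS 2, against 50.6 to 62.3 in the other Media and 86.7 to 104 in the other LPS libraries. Monocyte markers were also highest there, at 130 and 157 FPKM against 34.3 to 49.0 in the rest. Leaving out number 2 gave 2042 genes higher and 1957 lower, close to the counts with it. Leaving out any other number gave fewer, 1424 to 1764 higher and 1081 to 1450 lower. Such counts do not show whether the same genes were called. In bulk libraries, fewer cells of a type and less RNA per cell cannot be told apart.

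**Figure D2:**
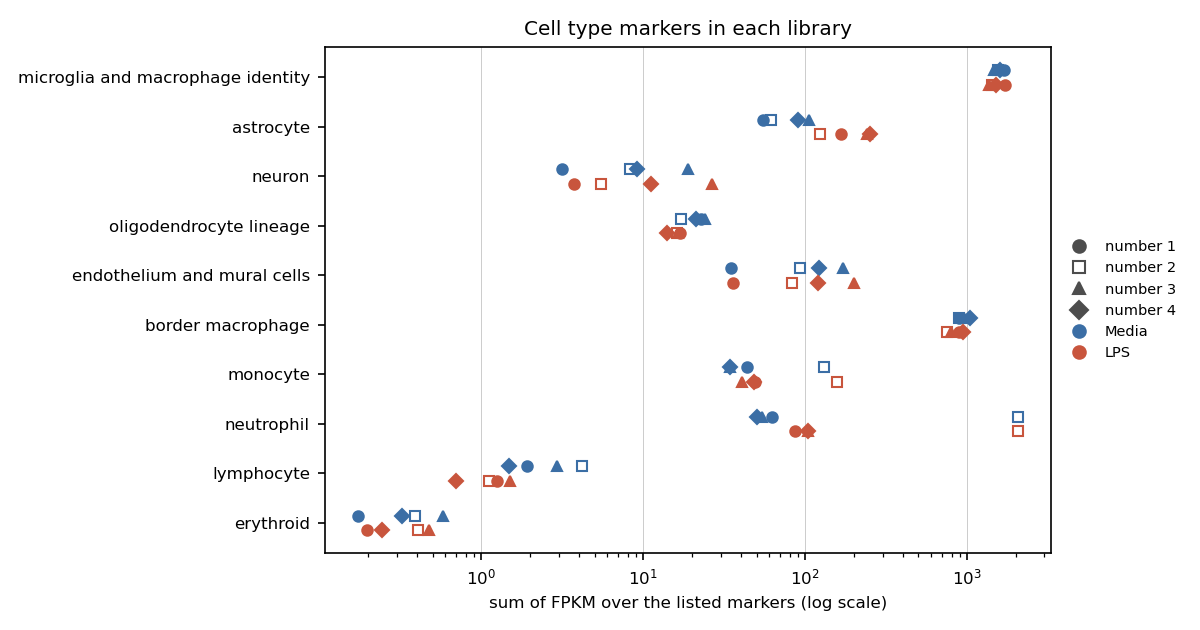
Summed FPKM (log scale) of the markers of each cell type in each library, Media in blue and LPS in red, with 1 symbol per replicate number (open squares are number 2). Neutrophil and monocyte sums are highest in both libraries numbered 2, astrocyte sums are higher in every LPS library than in every Media library, and identity markers lie close together.

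Exposure to LPS changed the level of 4036 of the 10870 genes tested. Levels of 2069 genes (19.0% of 10870) were higher and of 1967 (18.1%) lower at an adjusted p under 0.05, by limma on log2(FPKM + 1) with the replicate number as a block and Benjamini-Hochberg adjustment over all genes tested. The rises were larger than the falls: 524 genes rose and 124 fell at least 2-fold on that scale, 155 rose and 4 fell at least 4-fold, and 46 rose and 0 fell at least 8-fold. Groups did not overlap for 1358 of the genes called higher and 1143 of those called lower; over all genes tested, whatever their p, this held for 13.7% (LPS above Media) and 12.4% (LPS below Media). The 4 pairs of libraries that share a number moved the same way in 2040 of the called rises and 1937 of the called falls. Leaving out 1 number at a time gave 1424 to 2042 genes higher and 1081 to 1957 lower. The counts of lower genes were 1298 without number 1 and 1081 without number 3. With no replicate block, 1274 genes were higher and 1002 lower, and all 2276 were also called with it. Among genes tested, 46 were under 1 FPKM in every Media library and at least 1 FPKM in every LPS library, and 40 the reverse, so they entered through 1 group only. Log2 fold changes below are given ± SE as differences of log2(FPKM + 1), so changes of genes with low values come out smaller than their ratios. Means are given ± SD over 4 libraries per group. Counts of called members in the gene lists below are to be set beside the 19.0% and 18.1% of all genes tested.

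**Figure D3:**
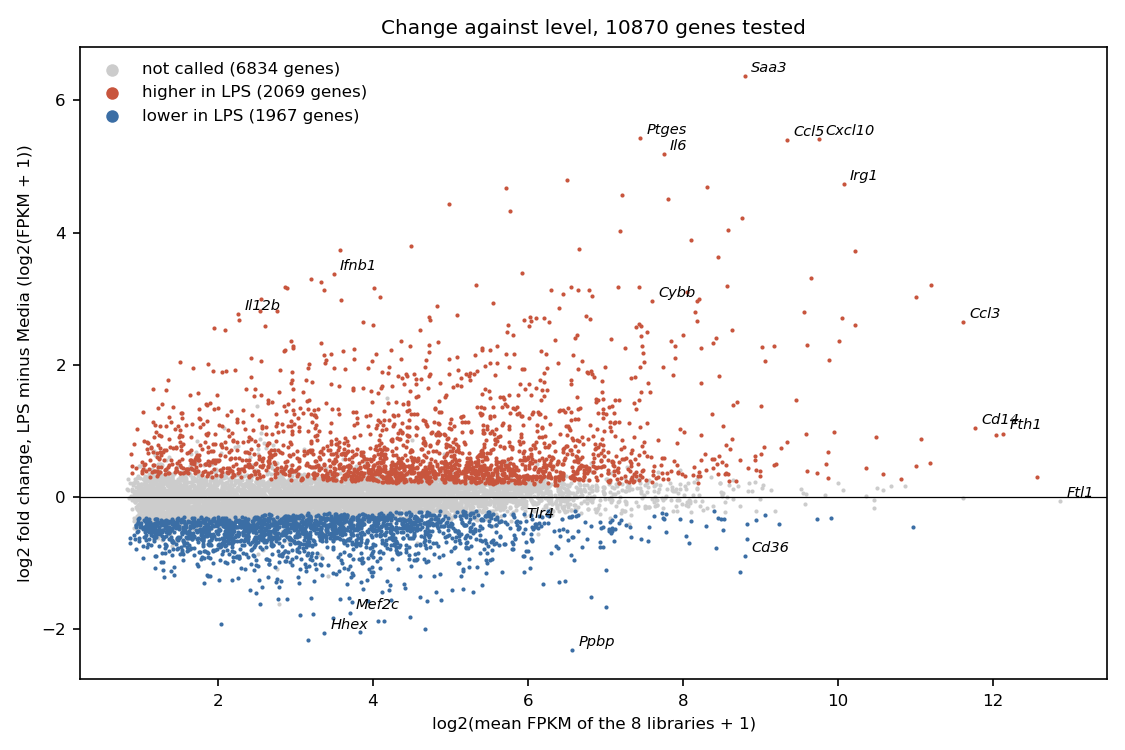
Each point is 1 of the 10870 genes tested: its level over the 8 libraries, as log2(mean FPKM + 1), against its log2 fold change, LPS minus Media; red points were called higher, blue lower, grey neither. Rises reach 6.37 (Saa3) and falls -2.32 (Ppbp), and changed genes lie at all levels.

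The 20 largest rises included secreted proteins, enzymes and surface receptors. Saa3, an acute phase protein of the serum amyloid A family made by macrophages, stood at 8.04, 6.32, 10.9 and 7.0 FPKM in Media 1 to 4 and 490.0, 337, 1219 and 1479 FPKM in LPS 1 to 4. All LPS libraries lay far above all Media libraries, and LPS 3 and 4 were well above LPS 1 and 2; the log2 fold change was 6.37 ± 0.30, adjusted p = 1.8e-05. Ptges, the inducible synthase that makes prostaglandin E2, had 5.3, 4.97, 9.82 and 6.71 FPKM in Media 1 to 4 and 220.3, 242, 419 and 483 FPKM in LPS 1 to 4, and it rose with a log2 fold change of 5.43 ± 0.14, adjusted p = 2.3e-06. Irg1 (now Acod1), which makes itaconate in mitochondria, went from 80.6 ± 28.2 to 2080.0 ± 248 FPKM (4.74 ± 0.15). Socs3, a brake on signalling by the interleukin 6 receptor, went from 17.5 ± 3.43 to 429 ± 116 FPKM (4.51 ± 0.11). Other genes in the 20 largest rises were Rnd1, a regulator of the cytoskeleton (4.67 ± 0.27), Slamf1, a surface receptor of leukocytes (4.43 ± 0.28), and Serpinb2, an inhibitor of plasminogen activators (4.02 ± 0.23). So were the collagenase Mmp13 (3.89 ± 0.09), the metal reductase Steap4 (3.79 ± 0.29), the niacin and beta-hydroxybutyrate receptor Hcar2 (3.76 ± 0.18) and the early activation antigen Cd69 (3.73 ± 0.23). In each of these 20 genes the lowest LPS library lay above the highest Media library, which the rule for naming them required.

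**Figure D4:**
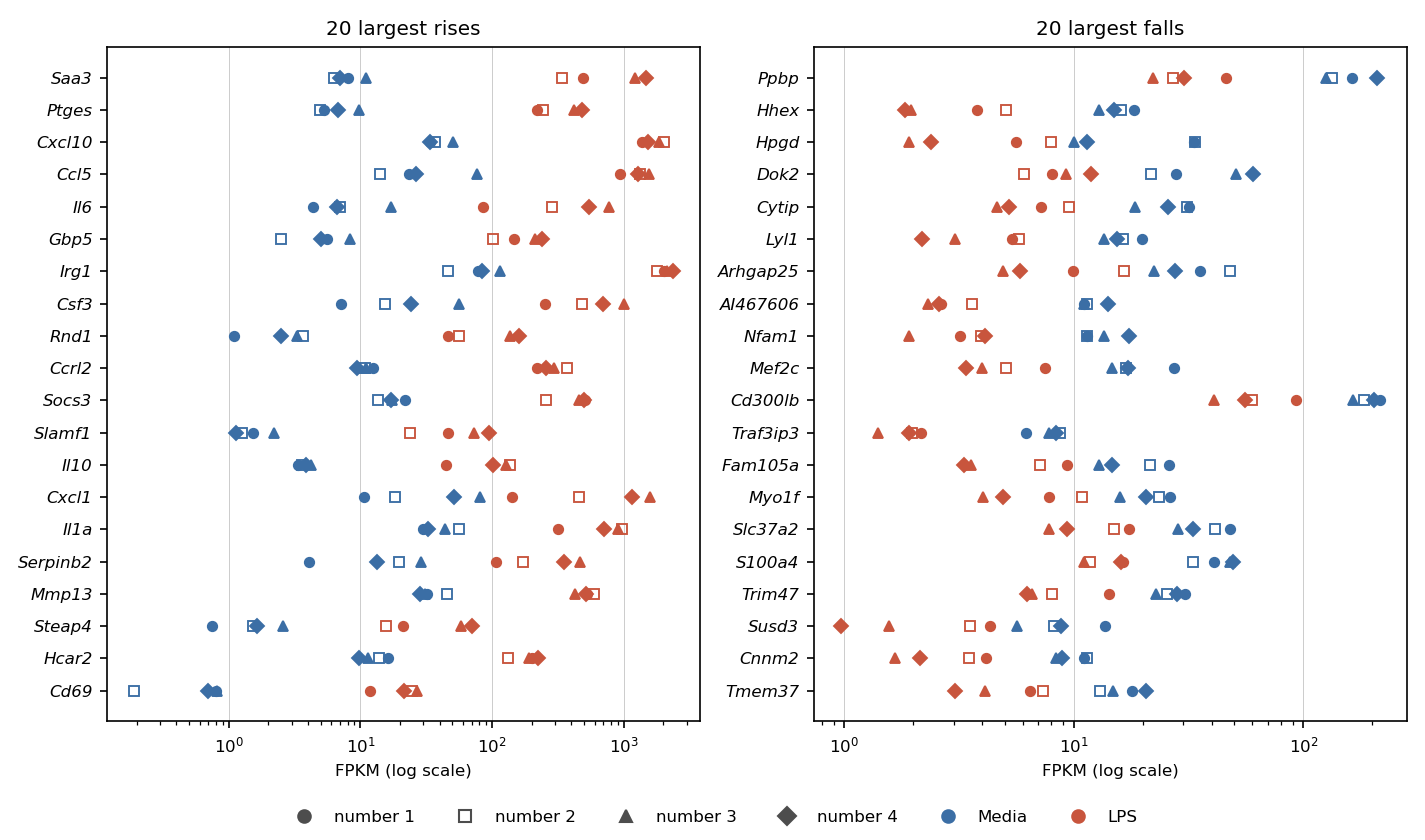
FPKM (log scale) in each library for the 20 genes with the largest rises (left) and the 20 with the largest falls (right), Media in blue and LPS in red, with 1 symbol per replicate number. Groups do not overlap in any of the 40 genes by the rule that chose them; the red and blue symbols of 1 number often shift together, as in Csf3 and Hpgd.

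NF-kB and the interferon-activated factors bind short DNA motifs, and letters that match them were looked up near the starts of these genes. In RefSeq (GRCm38.p6, the same coordinates as mm10), 8627 tested genes had at least 1 window of 300 bases, from 250 before to 50 after the annotated start. Windows were searched on both strands for the NF-kB core GGANNTTCC, the interferon response core GAAANNGAA and the AP-1 core TGANTCA. The 20 largest rises included 14 genes with a window, and in the 250 bases before the start 6 of them held the NF-kB core, 4 the interferon response core, and Cxcl10 and Gbp5 both. Ptges, Socs3, Slamf1, Il1a, Serpinb2 and Steap4 held neither core there. All 8 genes that held either core are shown, and their letters differ: some carry only the NF-kB core, some only the interferon response core. Each is upstream of its gene, in lower case with the matches in capitals, read 5′ to 3′ along the strand of the gene.
Saa3 (chr7:46715773-46715821, minus strand): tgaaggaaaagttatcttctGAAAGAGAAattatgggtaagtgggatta
Cxcl10 (chr5:92349019-92349122, minus strand): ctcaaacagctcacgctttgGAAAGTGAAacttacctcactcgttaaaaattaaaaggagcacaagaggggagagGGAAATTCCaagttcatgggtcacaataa
Il6 (chr5:30013051-30013099, plus strand): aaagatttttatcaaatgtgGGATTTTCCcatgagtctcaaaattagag
Gbp5 (chr3:142496750-142496885, plus strand): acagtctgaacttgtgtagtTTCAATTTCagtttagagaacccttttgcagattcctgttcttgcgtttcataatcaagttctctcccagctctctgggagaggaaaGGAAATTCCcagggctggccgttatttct
Irg1 (chr14:103046907-103046955, plus strand): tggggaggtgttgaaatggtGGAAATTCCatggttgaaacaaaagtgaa
Ccrl2 (chr9:111057558-111057606, minus strand): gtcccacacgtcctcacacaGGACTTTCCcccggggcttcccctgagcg
Cxcl1 (chr5:90891155-90891203, plus strand): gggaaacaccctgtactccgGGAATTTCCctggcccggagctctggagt
Mmp13 (chr9:7272343-7272397, plus strand): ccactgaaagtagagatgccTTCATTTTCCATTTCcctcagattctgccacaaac
The NF-kB core starts 43 bases before the start of Il6, 70 before Cxcl1, 68 before Ccrl2, 85 before Irg1, 158 before Cxcl10 and 77 before Gbp5. The interferon response core starts 213 bases before Cxcl10, 164 before Gbp5, 125 before Saa3, and 151 and 145 before Mmp13, where the 2 matches overlap. In Cxcl10, Gbp5, Irg1 and Cxcl1 both strands fit the NF-kB pattern at the same bases, which are shown once.

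Over all windows of tested genes, 4.77% held the NF-kB core, 7.26% the interferon response core and 5.21% the AP-1 core. Among windows of genes that rose at least 4-fold, these shares were 17.3%, 23.3% and 19.5% of 133 windows. Among genes that fell at least 2-fold they were 0.769%, 5.38% and 10.8% of 130 windows. The cytokine list had the NF-kB core in 26.9% of 26 windows and the interferon response core in 7.69%, while antiviral interferon-stimulated genes had them in 13.6% and 52.3% of 44 windows. Interferon-inducible GTPases, with 11 windows, held the interferon response core in 81.8%. A match is a description of letters, with no test, and does not show that a factor binds.

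**Figure D5:**
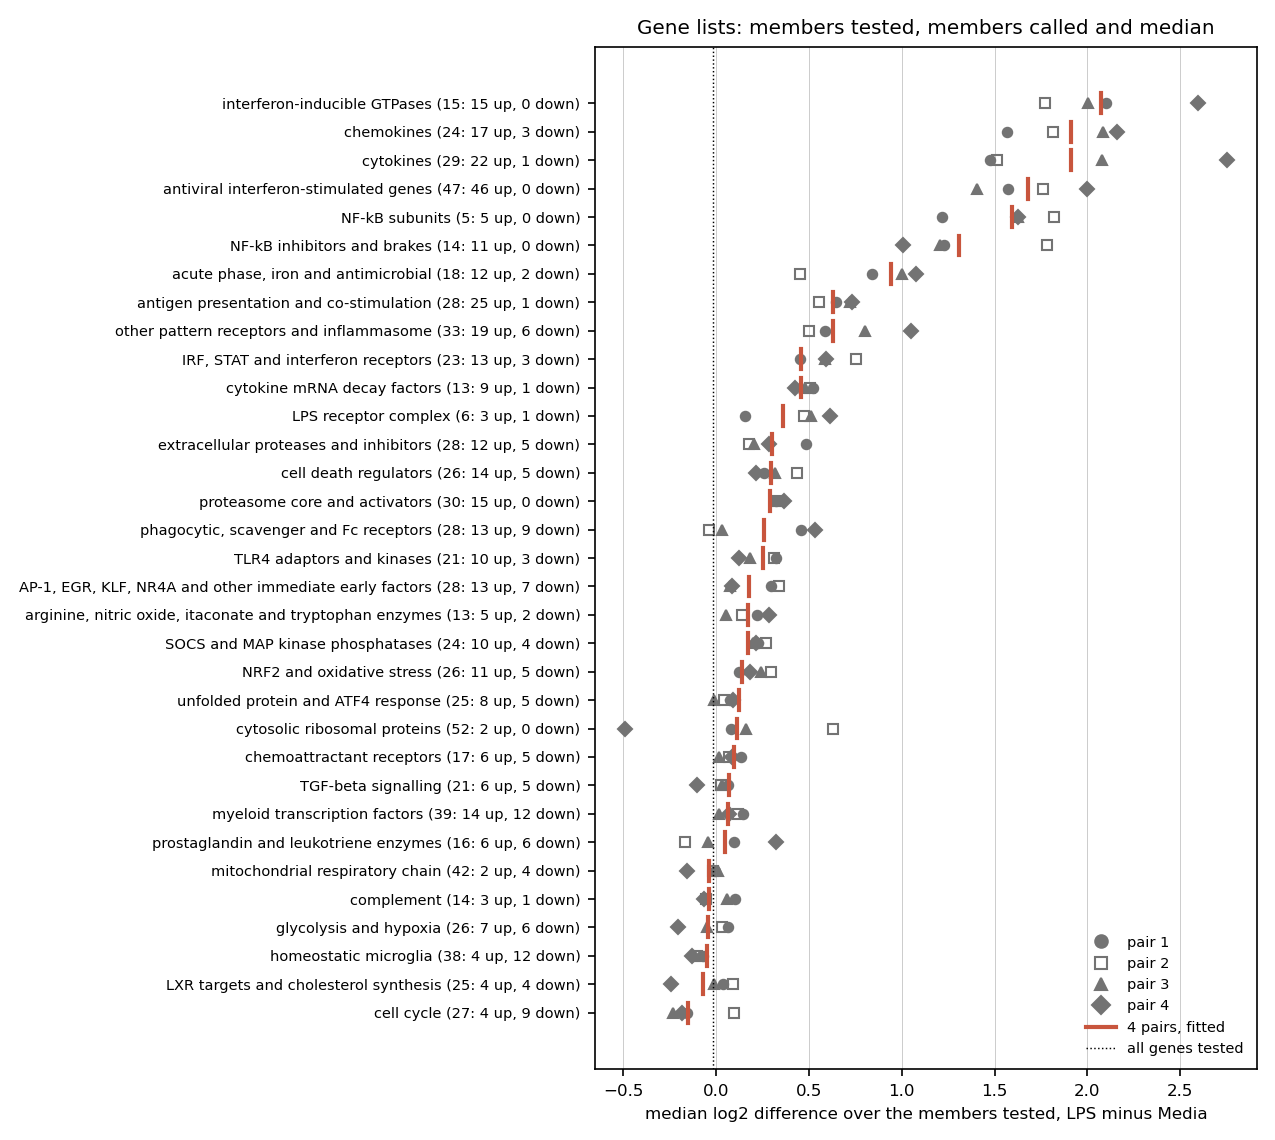
Median log2 difference, LPS minus Media, over the tested members of each gene list: grey symbols are the 4 pairs of libraries with the same number, red bars the fitted value over all pairs, and the dotted line the median of all genes tested (-0.02). Labels give the members tested, called higher and called lower; the GTPase, chemokine, cytokine, antiviral and both NF-kB lists lie at the top with every pair above 1, and pairs of the ribosomal list spread from -0.49 to 0.63.

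Components of the LPS receptor moved in different directions. Cd14, the co-receptor that loads LPS, was already abundant in Media, with 2355, 2148, 2274 and 2290.0 FPKM in Media 1 to 4 and 5249, 4165, 4594 and 4841 FPKM in LPS 1 to 4, and every LPS library was higher, with a log2 fold change of 1.05 ± 0.08, adjusted p = 1.1e-04. After quantile normalization this was 0.02 and missed the test. Ly96, the LPS-binding partner of Tlr4, rose from 18.5 ± 5.08 to 32.9 ± 8.87 FPKM (0.79 ± 0.09). Cd180, a Toll-like relative that modulates LPS responses, rose from 31.3 ± 6.39 to 49.4 ± 11.4 FPKM (0.64 ± 0.12, but 0.32 and no longer called with the scaling undone). Tlr4 itself had 70.0, 58, 63.4 and 73.8 FPKM in Media 1 to 4 and 54.8, 40.5, 50.2 and 59.3 FPKM in LPS 1 to 4. Each LPS library was below the Media library of its number but the groups overlapped, and Tlr4 fell with the block (-0.37 ± 0.07, adjusted p = 0.00522, and 0.0752 with no replicate block). Neither Lbp (2.99 ± 1.3 FPKM in Media and 3.62 ± 2.35 in LPS) nor Ly86, the partner of Cd180 (68.3 ± 7.65 FPKM in Media and 68.7 ± 12.6 in LPS), passed the test.

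Of 21 adaptors and kinases downstream of Tlr4, 21 were tested. In LPS 10 rose and 3 fell, and the median log2 fold change of those tested was 0.25. These counts were 9 and 3 with no replicate block and 6 and 7 with the scaling factors undone, where the median was -0.06. The adaptor Myd88 rose from 59.5 ± 6.74 to 124 ± 19.1 FPKM (1.04 ± 0.08), and so did Irak2, a kinase of the same complex (0.70 ± 0.07). Irak3, a member without kinase activity that restrains the complex, rose more, from 6.27 ± 0.903 to 26.4 ± 6.37 FPKM (1.89 ± 0.13). Ikbke, a relative of TBK1, rose from 12.7 ± 2.91 to 48.8 ± 10.2 FPKM (1.86 ± 0.09). Map3k8, the kinase that activates ERK downstream of Toll-like receptors, rose from 14.9 ± 2.48 to 51 ± 9.46 FPKM (1.70 ± 0.16). Ticam2, the adaptor that bridges Tlr4 to TRIF, fell in all pairs and without overlap, with 11.7, 15, 12.7 and 11.1 FPKM in Media 1 to 4 and 4.6, 4.42, 2.92 and 3.1 FPKM in LPS 1 to 4 and a log2 fold change of -1.53 ± 0.12, adjusted p = 9.8e-05. TRIF itself, Ticam1, did not pass the test, at 29.8 ± 2.05 FPKM in Media and 26.6 ± 3.13 in LPS. Irak1 (-0.46 ± 0.08) and Tab1, a partner of the kinase TAK1 (-0.72 ± 0.13), fell.

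All 5 NF-kB subunit genes rose, against 19.0% of all genes tested, and they did so under each scaling tried. Nfkb1, which encodes p105 and p50, rose from 102 ± 10.5 to 367 ± 27.4 FPKM (1.84 ± 0.09), and Rel from 31.9 ± 3.29 to 103 ± 16.4 FPKM (1.65 ± 0.13). The rise of Nfkb2 was from 61.2 ± 8.01 to 186 ± 10.4 FPKM (1.59 ± 0.09), and that of Relb from 38.2 ± 4.59 to 82.6 ± 12.2 FPKM (1.09 ± 0.10). Rela, the least changed, rose from 69.7 ± 2.49 to 115 ± 6.59 FPKM (0.71 ± 0.06). Tests covered 14 of the 14 NF-kB inhibitors and brakes. They held 11 that rose and 0 that fell. The median log2 fold change of the tested members was 1.31. Leaving out the block gave 11 and 0, and undoing the scaling 11 and 1. Tnfaip3 (A20), an enzyme that edits ubiquitin chains and shuts the pathway down, had 60.1, 48.5, 49.8 and 47 FPKM in Media 1 to 4 and 509, 681, 726 and 684 FPKM in LPS 1 to 4, a tight shift in all 4 pairs with a log2 fold change of 3.63 ± 0.14, adjusted p = 7.7e-06. Nfkbia, the classical inhibitor IkB-alpha, rose from 109 ± 14.6 to 577 ± 44 FPKM (2.40 ± 0.10). Nfkbiz, a nuclear member needed for secondary genes such as Il6, rose from 23.5 ± 3.44 to 202 ± 39.4 FPKM (3.04 ± 0.07). Tnip3 (2.36 ± 0.20), Tnip1 (2.15 ± 0.08) and Bcl3 (1.97 ± 0.12) also rose, and Tnip2, Cyld and Otulin did not pass the test.

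The 38 cytokine genes included 29 that were tested. Among them 22 rose and 1 fell. Those that rose include Il12b, Il23a, Csf2 and Il19, which passed the filter through LPS alone. Over those tested the median log2 fold change was 1.91. A fit with no block called 19 and 1 of them, and one with the scaling undone 22 and 3. Il6, which drives acute phase responses, had 4.38, 6.98, 17.1 and 6.58 FPKM in Media 1 to 4 and 85.2, 285, 775 and 539.7 FPKM in LPS 1 to 4. No LPS library overlapped Media, and number 1 was lowest and number 3 highest in both groups; the log2 fold change was 5.19 ± 0.30, adjusted p = 3.1e-05. Csf3, the granulocyte growth factor G-CSF, had 7.15, 15.4, 56.3 and 24.3 FPKM in Media 1 to 4 and 251, 483, 1004 and 695 FPKM in LPS 1 to 4 and rose in parallel with a log2 fold change of 4.69 ± 0.14, adjusted p = 5.0e-06. Il1b, made as a precursor that inflammasomes process, had 188, 183, 154 and 132 FPKM in Media 1 to 4 and 1392, 2575, 2622 and 2334 FPKM in LPS 1 to 4 and a log2 fold change of 3.73 ± 0.20, adjusted p = 2.4e-05. Among cytokines it was the most abundant in LPS. Tnf rose from 61.7 ± 9.11 to 530.4 ± 228 FPKM (3.00 ± 0.18) and Il1a from 40.7 ± 12.2 to 725 ± 296 FPKM (4.04 ± 0.17). Cytokines that restrain inflammation rose with them: Il10 went from 3.76 ± 0.362 to 103 ± 42 FPKM (4.33 ± 0.23) and the interleukin 1 receptor antagonist Il1rn from 333 ± 119 to 1732 ± 641 FPKM (2.37 ± 0.15).

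Several cytokines were close to the detection limit in Media. Ifnb1, the interferon of the TRIF arm, had 0.638, 1.27, 1.1 and 0.552 FPKM in Media 1 to 4 and 9.56, 23.5, 28.2 and 17.4 FPKM in LPS 1 to 4, a log2 fold change of 3.37 ± 0.18, adjusted p = 2.3e-05. Il12b and Il23a, the subunits that together form interleukin 23, had 0.0974 ± 0.0657 FPKM in Media and 7.5 ± 4.06 in LPS and 0.143 ± 0.123 FPKM in Media and 12.7 ± 9.2 in LPS. In LPS 1 they reached 1.91 and 1.4 FPKM, the lowest of the LPS libraries. Csf2, the growth factor GM-CSF, had 0.104 ± 0.0873 FPKM in Media and 9.64 ± 6.72 in LPS, and Il19, of the interleukin 10 family, 0.247 ± 0.272 FPKM in Media and 12.4 ± 8.64 in LPS; their log2 fold changes were 3.00 ± 0.39 and 3.18 ± 0.39. All 4 of Il12b, Il23a, Csf2 and Il19 were under 1 FPKM in every Media library. They passed the filter through LPS alone, so that they differ follows from the filter. Il27 (2.23 ± 0.26) and Il15 (2.25 ± 0.19), which act on lymphocytes, also rose. Tnfsf12 (TWEAK) was the only member that fell (-0.79 ± 0.12). Csf1 (246 ± 127 FPKM in Media and 281 ± 169.9 in LPS), Tgfb1 (77.6 ± 3.7 FPKM in Media and 71.1 ± 12.4 in LPS) and Osm (60.5 ± 13.3 FPKM in Media and 69.3 ± 19 in LPS) did not pass the test.

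Chemokine genes had 24 of 30 members tested, with 17 higher and 3 lower. A median log2 fold change of 1.91 was found over those tested. The calls became 16 and 1 when the replicate block was dropped and 17 and 4 when the scaling was undone. Cxcl10, a ligand of CXCR3 that attracts T cells and is induced by interferon, had 33.6, 36.6, 50.5 and 33.9 FPKM in Media 1 to 4 and 1368, 2016, 1853 and 1525 FPKM in LPS 1 to 4. The LPS libraries lay close together and far above Media, a log2 fold change of 5.42 ± 0.10, adjusted p = 1.4e-06. Ccl5, which attracts T cells and monocytes, had 23.3, 14, 76.2 and 26.3 FPKM in Media 1 to 4 and 934, 1320.2, 1547 and 1274 FPKM in LPS 1 to 4, where Media 3 was above the rest of its group; it rose with a log2 fold change of 5.40 ± 0.29, adjusted p = 2.5e-05. Cxcl1, a neutrophil attractant, had 10.6, 18.3, 80.3 and 51.5 FPKM in Media 1 to 4 and 141, 455, 1581 and 1149.8 FPKM in LPS 1 to 4. It ran in parallel in the pairs, lowest in number 1 and highest in number 3 of both groups, so its SE with the block was small (4.23 ± 0.15, adjusted p = 7.0e-06). Cxcl2 rose from 438 ± 128 to 3680.1 ± 1371 FPKM (3.03 ± 0.10) and Cxcl3 from 183 ± 20.7 to 1326 ± 374 FPKM (2.80 ± 0.13). Ccl3 and Ccl4, which attract monocytes and T cells, were the most abundant of the list: Ccl3 rose from 862 ± 242 to 5414 ± 1409.8 FPKM (2.64 ± 0.21) and Ccl4 from 461 ± 52.5 to 4276 ± 461 FPKM (3.21 ± 0.12). Ccl2 and Ccl7, which attract monocytes, also rose, Ccl2 from 39.2 ± 14.9 to 228 ± 127 FPKM (2.39 ± 0.19) and Ccl7 from 20.9 ± 10.9 to 132 ± 64.2 FPKM (2.65 ± 0.21). Ppbp, a platelet-type ligand of CXCR2, fell most of all genes tested, with 163, 134, 125 and 209 FPKM in Media 1 to 4 and 45.9, 27.1, 22.1 and 30.1 FPKM in LPS 1 to 4 and a log2 fold change of -2.32 ± 0.14, adjusted p = 3.9e-05. Its neighbour in the same family, Pf4, fell slightly (-0.27 ± 0.07, adjusted p = 0.0246, and 0.12 with no replicate block), and Ccl24 by -0.67 ± 0.10, adjusted p = 0.00267, and 0.475 with no replicate block (adjusted p 0.475 with no block).

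Measured levels allowed a test of 17 of the 24 chemoattractant receptors. Of these, 6 rose and 5 fell, with a median log2 fold change of 0.09. Without the block the counts were 5 and 4, and without the scaling 5 and 7, where the median was -0.10. Ccrl2, which binds the chemoattractant chemerin without signalling, had 12.4, 10.8, 11 and 9.39 FPKM in Media 1 to 4 and 217, 368, 295 and 258 FPKM in LPS 1 to 4, no overlap, and a log2 fold change of 4.56 ± 0.14, adjusted p = 5.0e-06. The formyl peptide receptors Fpr1 (from 6.5 ± 1.03 to 71.7 ± 29.1 FPKM; 3.21 ± 0.20) and Fpr2 (2.07 ± 0.17), which sense bacterial peptides, and Ccr7, the lymph node homing receptor (1.86 ± 0.18), rose. Cx3cr1, the fractalkine receptor of microglia, fell from 14.2 ± 1.07 to 8.68 ± 0.98 FPKM (-0.66 ± 0.10), as did Ccr1 (-0.78 ± 0.11), C5ar2 (-0.76 ± 0.11) and S1pr1 (-0.66 ± 0.09).

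Nearly every antiviral gene rose. A list of 48 antiviral interferon-stimulated genes had 47 members tested. Their median log2 fold change was 1.68, and 46 rose and 0 fell. Dropping the block changed the counts to 29 and 0, and undoing the scaling to 46 and 1. Oasl1, an inhibitor of Irf7 translation related to the 2-5A synthetases, had 145, 79.2, 244 and 151 FPKM in Media 1 to 4 and 1588, 1088, 1591 and 1585 FPKM in LPS 1 to 4 and a log2 fold change of 3.32 ± 0.16, adjusted p = 1.8e-05. Ifit1, which binds foreign RNA, rose from 80.1 ± 42.7 to 679 ± 215 FPKM (3.19 ± 0.17), Cmpk2 from 67 ± 33.7 to 511 ± 169 FPKM (2.96 ± 0.14) and Rsad2 (viperin) from 298 ± 168 to 1834 ± 672 FPKM (2.70 ± 0.14). Isg15, a ubiquitin-like modifier, varied among the libraries of both groups: it had 239, 95.8, 542 and 285 FPKM in Media 1 to 4 and 1070.3, 819.7, 1746 and 1405 FPKM in LPS 1 to 4. Media 2 was lowest and Media 3 highest, LPS 2 was lowest and LPS 3 highest, and the change was 2.31 ± 0.20, adjusted p = 1.7e-04. The only member that missed the test was Ifi27l2a, at 18.4 ± 5.63 FPKM in Media and 16.9 ± 7.11 in LPS. Ifit3 and Ifit3b, and several Oas1 and Slfn genes, have near-identical copies, so reads may have been split between them.

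Of 19 interferon-inducible GTPases, 15 were tested. In LPS 15 rose and 0 fell, and the median log2 fold change of those tested was 2.07. The unblocked fit called 15 and 0, and the fit with the scaling undone 15 and 0. These proteins attack the vacuoles of intracellular pathogens. Gbp5, which also promotes inflammasome activity, had 5.58, 2.48, 8.35 and 5.05 FPKM in Media 1 to 4 and 147, 102, 211 and 239.6 FPKM in LPS 1 to 4 and a log2 fold change of 4.80 ± 0.14, adjusted p = 5.0e-06. Gbp3 rose from 9.73 ± 5.69 to 109.9 ± 49.2 FPKM (3.39 ± 0.16) and Gbp2 from 20.5 ± 14.5 to 178 ± 85.6 FPKM (3.13 ± 0.18). Iigp1 rose from 6.0 ± 3.11 to 40.8 ± 18.2 FPKM (2.52 ± 0.20). Tgtp1 and Tgtp2, and Gbp6 and Gbp10, are near copies of each other and their separate values are uncertain.

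Tests covered 23 of the 24 interferon regulatory factors, STAT proteins, Janus kinases and interferon receptors. They held 13 that rose and 3 that fell. The median log2 fold change of the tested members was 0.46. Higher and lower calls came to 8 and 2 unblocked and to 11 and 5 with the scaling undone. Irf1 rose from 15.4 ± 2.61 to 58.6 ± 4.92 FPKM (1.88 ± 0.08) and Stat2 from 57.9 ± 23.7 to 145 ± 48.3 FPKM (1.35 ± 0.10). Stat3 rose from 82.5 ± 18.2 to 182 ± 40.6 FPKM (1.13 ± 0.06) and Stat5a from 5.2 ± 0.531 to 23.4 ± 6.16 FPKM (1.95 ± 0.13). Irf7, the factor that amplifies interferon production, rose with the block (1.28 ± 0.12, adjusted p = 2.5e-04, and 0.177 with no replicate block). The receptor chain Ifnar2 rose from 31.1 ± 0.544 to 69.4 ± 11 FPKM (1.12 ± 0.10). Irf5, which works with MyD88, fell from 131 ± 19.3 to 85.4 ± 24.4 FPKM (-0.64 ± 0.10), and Irf3, the factor activated by TBK1, fell from 22.5 ± 1.09 to 16 ± 1.5 FPKM (-0.47 ± 0.08). Both interferon gamma receptor chains missed the test, Ifngr1 at 39.8 ± 6.95 FPKM in Media and 46.3 ± 4.34 in LPS and Ifngr2 at 81.4 ± 12 FPKM in Media and 88.1 ± 17.4 in LPS.

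The 36 other pattern receptors and inflammasome genes included 33 that were tested. Among them 19 rose and 6 fell. Over those tested the median log2 fold change was 0.63. These counts were 16 and 3 with no replicate block and 17 and 10 with the scaling factors undone. Ifih1 (MDA5), a sensor of viral RNA, rose from 29.7 ± 13.1 to 255 ± 31.2 FPKM (3.17 ± 0.22). Clec4e (Mincle), a sensor of mycobacterial glycolipid, rose from 54.6 ± 11.2 to 477 ± 101 FPKM (3.10 ± 0.14). Nlrp3, the inflammasome sensor, rose from 78 ± 13.3 to 431 ± 72.3 FPKM (2.45 ± 0.16). Casp4, which binds LPS in the cytosol, rose from 69.3 ± 14.9 to 289 ± 63.1 FPKM (2.05 ± 0.10). Surface receptors for lipoproteins rose, Tlr2 from 72.6 ± 32.9 to 274 ± 47.5 FPKM (1.97 ± 0.13) and Tlr1 from 15.5 ± 1.43 to 58.3 ± 10.1 FPKM (1.83 ± 0.14), and so did Tlr3, for double-stranded RNA (1.74 ± 0.11). Tlr5, for flagellin, Tlr13, for bacterial ribosomal RNA, and Tlr8, for single-stranded RNA, were lower. Tlr5 had 2.73, 2.11, 2.11 and 2.77 FPKM in Media 1 to 4 and 0.747, 0.193, 0.486 and 0.53 FPKM in LPS 1 to 4 (-1.21 ± 0.11). It was under 1 FPKM in every LPS library and passed the filter through Media alone, so that it differs follows from the filter. Tlr13 fell from 77.2 ± 12.8 to 43.3 ± 16.6 FPKM (-0.89 ± 0.13), and Tlr8 fell with the block (-0.95 ± 0.10, adjusted p = 4.2e-04, and 0.0726 with no replicate block). The beta-glucan receptor Clec7a fell from 80.3 ± 5.73 to 51.1 ± 10.3 FPKM (-0.66 ± 0.10). Tlr7 (104 ± 34.4 FPKM in Media and 91.7 ± 34.6 in LPS), Aim2 and Pycard did not pass the test.

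Antigen presentation and co-stimulation genes had 28 of 34 members tested, with 25 higher and 1 lower. A median log2 fold change of 0.63 was found over those tested. Leaving out the block gave 14 and 0, and undoing the scaling 15 and 1. Cd274 (PD-L1), a ligand that inhibits T cells, rose from 17 ± 2.32 to 156 ± 45.6 FPKM (3.08 ± 0.14). Cd40, a receptor for T cell help, rose from 3.11 ± 1.9 to 24.3 ± 9.48 FPKM (2.64 ± 0.10), and the adhesion ligand Icam1 from 79 ± 15.2 to 501 ± 47.2 FPKM (2.67 ± 0.15). Of the class I pathway, the peptide transporter Tap1 rose from 20.3 ± 8.46 to 65.3 ± 26.3 FPKM (1.63 ± 0.07) and its partner tapasin, Tapbp, from 75 ± 28.2 to 202 ± 56.8 FPKM (1.47 ± 0.09). H2-K1 rose from 204 ± 25.3 to 395 ± 43.1 FPKM (0.95 ± 0.06). Class I heavy chain genes are alike in sequence and reads may be split among them. Cd80 fell with the block (-0.60 ± 0.09, adjusted p = 0.00269, and 0.0714 with no replicate block), while Cd86 rose (0.62 ± 0.12, adjusted p = 0.00651; with the scaling undone 0.29 and no longer called). Measured levels allowed a test of 30 of the 30 proteasome core and activator genes. Of these, 15 rose and 0 fell, with a median log2 fold change of 0.29. A fit with no block called 13 and 0 of them, and one with the scaling undone 3 and 3, where the median was -0.03. Medians of this list over the 4 pairs were 0.32, 0.33, 0.32 and 0.37, while single members varied more between pairs. Psma6 rose from 92.1 ± 9.44 to 146 ± 28.6 FPKM (0.64 ± 0.14, but 0.32 and no longer called with the scaling undone) and Psme2 from 4.51 ± 0.559 to 8.86 ± 2.5 FPKM (0.81 ± 0.15).

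Feedback genes moved in both directions. A list of 24 SOCS and MAP kinase phosphatases had 24 members tested. Their median log2 fold change was 0.17, and 10 rose and 4 fell. The calls became 6 and 2 when the replicate block was dropped and 6 and 9 when the scaling was undone, where the median was -0.06. After Socs3, the largest rises were in Cish and Dusp2. Cish, a brake on STAT5, rose from 5.04 ± 0.94 to 25.9 ± 3.82 FPKM (2.16 ± 0.13). Dusp2, a nuclear phosphatase of MAP kinases, rose from 24.9 ± 8.2 to 94.9 ± 17.9 FPKM (1.93 ± 0.11). Dusp16, which acts on JNK and p38, rose (1.36 ± 0.11), while Dusp6, which acts on ERK, fell (-0.67 ± 0.08). Spred1 rose from 46.3 ± 9.22 to 96.9 ± 13 FPKM (1.06 ± 0.08) as its relative Spred2 fell from 12.4 ± 0.755 to 5.68 ± 1.05 FPKM (-1.02 ± 0.09), both inhibitors of Ras signalling; neither pair of groups overlapped. Of 14 cytokine mRNA decay factors, 13 were tested. In LPS 9 rose and 1 fell, and the median log2 fold change of those tested was 0.45. Without the block the counts were 8 and 0, and without the scaling 6 and 3. Zfp36 (tristetraprolin), which destroys mRNAs with AU-rich elements such as that of Tnf, rose from 364 ± 33.2 to 1526 ± 35.8 FPKM (2.07 ± 0.08). The RNases Zc3h12a (regnase-1) and Zc3h12c rose from 16.2 ± 1.01 to 57.9 ± 2.57 FPKM (1.77 ± 0.07) and from 50.6 ± 8.25 to 202 ± 34.9 FPKM (1.98 ± 0.10), and so did Arid5a, which protects Il6 mRNA from regnase-1 (1.24 ± 0.11). Zfp36l2 fell with the block (-0.65 ± 0.14, adjusted p = 0.0101, and 0.157 with no replicate block).

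Enzymes that make and break down prostaglandins moved in different directions. Tests covered 16 of the 20 prostaglandin and leukotriene enzymes. They held 6 that rose and 6 that fell. The median log2 fold change of the tested members was 0.05. Dropping the block changed the counts to 4 and 3, and undoing the scaling to 3 and 7, where the median was -0.26. Ptgs2 (cyclooxygenase 2), which feeds Ptges, rose from 335 ± 48.9 to 2053 ± 420.5 FPKM (2.60 ± 0.13), and Ptges had a mean of 341 FPKM in LPS. Hpgd, the enzyme that inactivates prostaglandin E2, fell, with 33.3, 33.7, 10.1 and 11.5 FPKM in Media 1 to 4 and 5.62, 7.96, 1.93 and 2.39 FPKM in LPS 1 to 4. Numbers 1 and 2 were higher than 3 and 4 in both groups, and each pair fell by a similar factor (-2.03 ± 0.11, adjusted p = 2.3e-05). Ptgs1, the constitutive cyclooxygenase, fell with the block (-0.66 ± 0.11, adjusted p = 0.00293, and 0.104 with no replicate block), and Alox5ap, needed for leukotriene synthesis, fell from 68.8 ± 14.8 to 43.6 ± 4.73 FPKM (-0.63 ± 0.09). The receptors Ptger2 (0.84 ± 0.09) and Ptger4 (0.72 ± 0.16, adjusted p = 0.0117, and 0.0731 with no replicate block; with the scaling undone 0.42 and no longer called) rose, and Ptger1 fell (-0.73 ± 0.11).

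The 21 enzymes of arginine, nitric oxide, itaconate and tryptophan metabolism included 13 that were tested. Among them 5 rose and 2 fell. Over those tested the median log2 fold change was 0.17. The unblocked fit called 5 and 2, and the fit with the scaling undone 5 and 5, where the median was -0.15. Irg1 had 77.6, 46.1, 115 and 83.8 FPKM in Media 1 to 4 and 2031, 1776, 2142 and 2372 FPKM in LPS 1 to 4, all LPS libraries alike, and a log2 fold change of 4.74 ± 0.15, adjusted p = 5.0e-06. Arg2, a mitochondrial arginase, rose from 2.22 ± 0.704 to 28.2 ± 8.54 FPKM (3.16 ± 0.25), and the arginine transporter Slc7a2 from 0.978 ± 0.243 to 17.7 ± 8.15 FPKM (3.13 ± 0.20). Ch25h, which makes 25-hydroxycholesterol, rose from 1.93 ± 0.393 to 16.2 ± 10.6 FPKM (2.33 ± 0.27). Nos2, the inducible nitric oxide synthase, was not tested because it reached 1 FPKM in only 3 libraries; it had 0.114, 0.0776, 0.415 and 0.408 FPKM in Media 1 to 4 and 1.54, 0.833, 3.75 and 4.75 FPKM in LPS 1 to 4, and the groups did not overlap. Glycolysis and hypoxia genes had 26 of 28 members tested, with 7 higher and 6 lower. These shares, 26.9% and 23.1%, stand beside 19.0% and 18.1% of all genes tested. A median log2 fold change of -0.04 was found over those tested. Higher and lower calls came to 5 and 4 unblocked and to 5 and 15 with the scaling undone. Pfkfb3, which sets the level of the activator of phosphofructokinase, rose from 19 ± 5.61 to 148 ± 51.4 FPKM (2.86 ± 0.28), as did Hif1a from 74.7 ± 6.45 to 174 ± 27.5 FPKM (1.20 ± 0.08) and hexokinase Hk2 from 10.9 ± 2.65 to 27.2 ± 5.53 FPKM (1.25 ± 0.16). Gpi1 and Tpi1 of the core pathway fell (-0.37 ± 0.07 and -0.24 ± 0.07, adjusted p = 0.0389, and 0.166 with no replicate block). Gapdh, Pkm and Ldha of the same pathway were among the members that did not pass the test. Gapdh had 53.7 ± 6.41 FPKM in Media and 52.4 ± 2.97 in LPS. Pkm had 443 ± 64.2 FPKM in Media and 409 ± 92.5 in LPS, and Ldha 27.9 ± 3.42 FPKM in Media and 27.1 ± 3.75 in LPS. Vegfa fell from 21.9 ± 3.13 to 12.5 ± 2.47 FPKM (-0.76 ± 0.07), and so did the lactate exporter Slc16a3 (-0.73 ± 0.12).

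Measured levels allowed a test of 18 of the 25 acute phase, iron and antimicrobial genes. Of these, 12 rose and 2 fell, with a median log2 fold change of 0.94. These counts were 7 and 0 with no replicate block and 10 and 5 with the scaling factors undone. Slpi, a secreted protease inhibitor, rose from 15.4 ± 3.7 to 80.1 ± 23.4 FPKM (2.28 ± 0.08), and the metal importers Slc11a2 (1.74 ± 0.07) and Slc39a14 (1.72 ± 0.12) rose. Ferritin chains differed: Fth1, the heavy chain, rose from 3049.8 ± 160.4 to 5946 ± 387 FPKM (0.96 ± 0.08, but -0.03 after quantile normalization), and Ftl1, the light chain, had 7612 ± 224 FPKM in Media and 7399 ± 1403 in LPS and did not pass the test. Lcn2, which binds bacterial iron carriers, had 3.45, 128, 4.05 and 4.53 FPKM in Media 1 to 4 and 40.8, 246, 75.8 and 121 FPKM in LPS 1 to 4. It rose in all 4 pairs (3.14 ± 0.51, adjusted p = 0.0031, and 0.0656 with no replicate block), and Media 2, where neutrophil markers were high, overlapped the LPS group. Hp, haptoglobin, had 2.81, 24, 1.64 and 2.11 FPKM in Media 1 to 4 and 8.99, 44.1, 8.27 and 17.3 FPKM in LPS 1 to 4, the same pattern (1.65 ± 0.25, adjusted p = 0.00222, and 0.153 with no replicate block). For S100a8, an antimicrobial protein of neutrophils and monocytes, the libraries held 19.9, 501, 16.4 and 20.8 FPKM in Media 1 to 4 and 32.8, 624, 46.4 and 49.5 FPKM in LPS 1 to 4. It rose with the block (0.92 ± 0.18, adjusted p = 0.00647, and 0.654 with no replicate block). The part of the neutrophil markers in these 3 results was not tested.

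A list of 27 NRF2 and oxidative stress genes had 26 members tested. Their median log2 fold change was 0.14, and 11 rose and 5 fell. Leaving out the block gave 8 and 3, and undoing the scaling 7 and 8, where the median was -0.18. Cybb, the catalytic chain of the phagocyte NADPH oxidase, had 42.6, 38.1, 46.1 and 44.5 FPKM in Media 1 to 4 and 272, 318, 371 and 419.6 FPKM in LPS 1 to 4, no overlap, and a log2 fold change of 2.97 ± 0.10, adjusted p = 5.0e-06. Its partner Cyba had 111 ± 16.4 FPKM in Media and 123 ± 24.2 in LPS and did not pass the test. The mitochondrial superoxide dismutase Sod2 rose from 49.5 ± 10.2 to 299.9 ± 44.1 FPKM (2.59 ± 0.09), and the cystine importer Slc7a11 from 224 ± 32.1 to 607 ± 44.8 FPKM (1.44 ± 0.08). Some NRF2 targets fell, Nqo1 from 121 ± 7.44 to 65.9 ± 6.87 FPKM (-0.87 ± 0.08), and the glutathione peroxidase Gpx1 fell from 85.3 ± 11.8 to 44.9 ± 7.44 FPKM (-0.91 ± 0.12). Hmox1, the heme oxygenase, was among the most abundant mRNAs of both groups and rose with the block (from 5458 ± 765 to 6711 ± 850.4 FPKM; 0.30 ± 0.08, adjusted p = 0.0297, and 0.168 with no replicate block); this rise missed the test under every other scaling of FPKM tried, with -0.03 when the factors were undone and -0.08 after quantile normalization.

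Of 29 extracellular proteases and their inhibitors, 28 were tested. In LPS 12 rose and 5 fell, and the median log2 fold change of those tested was 0.30. A fit with no block called 9 and 3 of them, and one with the scaling undone 10 and 9, where the median was -0.01. Mmp13 had 32.1, 45.8, 31 and 28.3 FPKM in Media 1 to 4 and 528, 598, 423 and 516 FPKM in LPS 1 to 4, a shift that was even across libraries (3.89 ± 0.09, adjusted p = 2.3e-06). Mmp14, a membrane protease that activates other metalloproteinases, rose from 17.9 ± 4.85 to 168 ± 28.4 FPKM (3.19 ± 0.11). The stromelysin Mmp3 rose from 0.70 ± 0.521 to 10.9 ± 2.85 FPKM (2.82 ± 0.10) and Serpinb2 from 16.4 ± 10.4 to 275 ± 164 FPKM (4.02 ± 0.23). Adam8, a sheddase of leukocytes, fell from 164 ± 28.1 to 58.4 ± 17 FPKM (-1.51 ± 0.13). Of the cathepsins, Ctsb (1544 ± 55.9 FPKM in Media and 1745 ± 245 in LPS) and Ctsl (900.5 ± 33.2 FPKM in Media and 928 ± 159 in LPS), with Ctsk and Ctss, missed the test, apart from Ctsc, which rose (1.03 ± 0.09), and Ctsd, which fell with the block (-0.45 ± 0.09, adjusted p = 0.00855, and 0.0917 with no replicate block). Tests covered 26 of the 29 cell death regulators. They held 14 that rose and 5 that fell. The median log2 fold change of the tested members was 0.30. The calls became 12 and 2 when the replicate block was dropped and 11 and 9 when the scaling was undone, where the median was -0.03. Genes that hold back apoptosis were among those that rose. Birc3 went from 39.1 ± 5.09 to 166 ± 13.1 FPKM (2.06 ± 0.08), Cflar from 30.2 ± 1.43 to 120.0 ± 6.37 FPKM (1.96 ± 0.07) and Traf1 from 17.6 ± 4.22 to 119 ± 21.1 FPKM (2.70 ± 0.13). Bcl2a1a, Bcl2a1b and Bcl2a1d rose too (2.45 ± 0.15, 2.05 ± 0.14 and 2.43 ± 0.12), but they are near-identical copies and are better read as a group. The death receptor Fas rose from 9.17 ± 3.02 to 31.2 ± 5.34 FPKM (1.71 ± 0.12), and Bmf, a promoter of apoptosis, fell from 4.03 ± 0.902 to 1.24 ± 0.521 FPKM (-1.18 ± 0.16).

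The 30 phagocytic, scavenger and Fc receptors included 28 that were tested. Among them 13 rose and 9 fell. Over those tested the median log2 fold change was 0.26. Without the block the counts were 8 and 6, and without the scaling 8 and 12. Fcgr2b, the inhibitory receptor for immunoglobulin G, had 12.1, 19.1, 14 and 15.6 FPKM in Media 1 to 4 and 109.7, 66.1, 89.5 and 161 FPKM in LPS 1 to 4, and all LPS libraries were higher (2.67 ± 0.23, adjusted p = 1.7e-04). Activating Fc receptors rose less, Fcgr4 from 2.99 ± 0.941 to 9.44 ± 2.77 FPKM (1.38 ± 0.13) and, with the block, Fcgr1 (0.73 ± 0.16, adjusted p = 0.0119, and 0.388 with no replicate block). Scavenger receptors went both ways. Msr1 rose from 69.5 ± 12.7 to 152 ± 41.9 FPKM (1.09 ± 0.08) and Olr1 from 1.15 ± 0.549 to 8.64 ± 3.97 FPKM (2.06 ± 0.18). Cd36 fell from 578 ± 39 to 313 ± 47 FPKM (-0.89 ± 0.09) and Stab1 from 44.1 ± 3.46 to 27.4 ± 6.11 FPKM (-0.69 ± 0.12). The dying-cell receptor Axl rose from 22.4 ± 3.56 to 50.4 ± 6.39 FPKM (1.14 ± 0.07), and its relative Mertk missed the test at 10.7 ± 2.43 FPKM in Media and 10.0 ± 3.57 in LPS. Complement genes had 14 of 19 members tested, with 3 higher and 1 lower. That is 21.4% higher and 7.14% lower, against 19.0% and 18.1% of all genes tested. A median log2 fold change of -0.04 was found over those tested. Dropping the block changed the counts to 1 and 1, and undoing the scaling to 2 and 9. Cfb, of the alternative pathway, rose from 7.76 ± 3.41 to 43.2 ± 24.2 FPKM (2.19 ± 0.16), and C1qa, C1qb and C1qc, abundant microglial proteins that start the classical pathway, did not pass the test.

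Measured levels allowed a test of 38 of the 40 homeostatic microglia genes. Of these, 4 rose and 12 fell, with a median log2 fold change of -0.05. The unblocked fit called 2 and 9, and the fit with the scaling undone 2 and 25. The share lower was 31.6%, against 18.1% of all genes tested, and with the scaling undone 5762 of 10801 genes tested were lower. Mef2c, a transcription factor that restrains inflammatory responses in microglia, had 27.4, 16.9, 14.7 and 17.2 FPKM in Media 1 to 4 and 7.49, 5.09, 3.98 and 3.38 FPKM in LPS 1 to 4. Every LPS library was below every Media library, with a log2 fold change of -1.75 ± 0.10, adjusted p = 3.5e-05. Gpr183, a receptor for oxysterols, had 37.1, 35.3, 10.9 and 17.1 FPKM in Media 1 to 4 and 8.97, 11.8, 1.96 and 3.48 FPKM in LPS 1 to 4 and fell in each pair although the groups overlapped (-1.87 ± 0.11, adjusted p = 3.2e-05). Tyrobp, the signalling partner of Trem2, fell from 549.8 ± 28.7 to 356 ± 54.2 FPKM (-0.63 ± 0.08), and Trem2 from 71.9 ± 10.4 to 49 ± 6.89 FPKM (-0.54 ± 0.10). P2ry6, a receptor for UDP, rose from 7.87 ± 0.961 to 14.8 ± 2.72 FPKM (0.82 ± 0.12), and P2ry12 rose with the block (0.32 ± 0.08, adjusted p = 0.0194, and 0.507 with no replicate block; with the scaling undone 0.02 and no longer called). Sall1, Fcrls (149 ± 12.4 FPKM in Media and 158 ± 14.5 in LPS) and Siglech (30.4 ± 8.2 FPKM in Media and 32.8 ± 7.82 in LPS) did not pass the test, and Csf1r fell with the block (-0.33 ± 0.08, adjusted p = 0.0165, and 0.16 with no replicate block).

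A list of 41 myeloid transcription factors had 39 members tested. Their median log2 fold change was 0.06, and 14 rose and 12 fell. Higher and lower calls came to 12 and 8 unblocked and to 11 and 18 with the scaling undone, where the median was -0.26. Batf, which works with AP-1 and IRF proteins, had 5.64, 6.28, 5.94 and 4.9 FPKM in Media 1 to 4 and 39.9, 43.6, 57.5 and 54.7 FPKM in LPS 1 to 4 and rose with a log2 fold change of 2.89 ± 0.12, adjusted p = 1.3e-05. Id3, an inhibitor of E proteins, rose from 6.74 ± 2.99 to 36 ± 10.2 FPKM (2.29 ± 0.10), and Batf2 from 2.7 ± 1.42 to 16 ± 7.29 FPKM (2.15 ± 0.16). Hhex, a homeobox factor of blood development, had 18.3, 16.1, 12.9 and 15 FPKM in Media 1 to 4 and 3.8, 5.07, 1.96 and 1.84 FPKM in LPS 1 to 4. Lyl1, a factor of early blood cells, had 19.7, 16.4, 13.6 and 15.4 FPKM in Media 1 to 4 and 5.36, 5.8, 3.04 and 2.18 FPKM in LPS 1 to 4. Both fell without overlap (-2.06 ± 0.16, adjusted p = 1.1e-04 and -1.82 ± 0.16, adjusted p = 1.7e-04). Tfeb, a regulator of lysosome genes, fell from 10.6 ± 1.96 to 4.0 ± 2.12 FPKM (-1.30 ± 0.18). Pparg, a lipid-sensing receptor, fell from 7.73 ± 1.27 to 2.84 ± 1.04 FPKM (-1.21 ± 0.12). The lineage factor Spi1 (PU.1) missed the test at 247 ± 19.5 FPKM in Media and 288 ± 36.1 in LPS, and Irf8 fell with the block (-0.46 ± 0.08, adjusted p = 0.00359, and 0.0533 with no replicate block).

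Of 28 AP-1, EGR, KLF, NR4A and other immediate early factors, 28 were tested. In LPS 13 rose and 7 fell, and the median log2 fold change of those tested was 0.17. These counts were 8 and 3 with no replicate block and 8 and 12 with the scaling factors undone, where the median was -0.11. Junb rose from 95.6 ± 8.78 to 219 ± 76.8 FPKM (1.13 ± 0.18), Maff from 26.7 ± 8.97 to 62.6 ± 21.5 FPKM (1.20 ± 0.07) and Ier3 from 236 ± 34.3 to 497 ± 79.8 FPKM (1.07 ± 0.06). Jun did not pass the test (83.3 ± 20.4 FPKM in Media and 72.6 ± 25.7 in LPS), and Fos fell with the block (-0.33 ± 0.08, adjusted p = 0.013, and 0.0509 with no replicate block). Egr1 rose with the block (0.76 ± 0.09, adjusted p = 6.8e-04, and 0.172 with no replicate block) as Egr2 fell from 53.6 ± 10.3 to 25.7 ± 7.16 FPKM (-1.06 ± 0.08). Tests covered 21 of the 24 TGF-beta signalling genes. They held 6 that rose and 5 that fell, or 28.6% and 23.8%, against 19.0% and 18.1% of all genes tested. The median log2 fold change of the tested members was 0.07. Leaving out the block gave 2 and 2, and undoing the scaling 2 and 12, where the median was -0.22. Skil, a co-repressor of SMAD proteins, rose from 26.8 ± 4.87 to 79.8 ± 13.9 FPKM (1.54 ± 0.09), and Nrros, which displays latent TGF-beta on microglia, fell from 38.3 ± 9.69 to 17.9 ± 9.53 FPKM (-1.16 ± 0.17).

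The largest falls were smaller than the largest rises and included regulators of leukocyte signalling. They were ranked among genes without overlap and with a mean of at least 5 FPKM in 1 group. The small RNA genes Mir7050 (-2.16 ± 0.56) and Snora23 (-1.91 ± 0.30) met these limits and were left out of the ranking. Mir7050 shares 100% of its bases with exons of a longer gene on the same strand. After Ppbp, Hhex and Hpgd in this ranking came Dok2, an adaptor that dampens kinase signals in myeloid cells, with 28, 21.7, 50.7 and 60.3 FPKM in Media 1 to 4 and 8.01, 6.09, 9.21 and 11.9 FPKM in LPS 1 to 4. Its log2 fold change was -1.99 ± 0.13, adjusted p = 5.9e-05. Cytip, a regulator of integrin adhesion, fell from 26.8 ± 6.1 to 6.65 ± 2.22 FPKM (-1.87 ± 0.10), and Cd300lb, an activating receptor, from 192 ± 22.1 to 62.4 ± 21.9 FPKM (-1.66 ± 0.13). Also in the 20 largest falls were Arhgap25, a brake on Rac (-1.82 ± 0.11), and Nfam1, an ITAM receptor (-1.77 ± 0.16). So were Myo1f, a myosin of immune cells (-1.58 ± 0.14), the sugar-phosphate transporter Slc37a2 (-1.57 ± 0.09) and the calcium-binding protein S100a4 (-1.56 ± 0.12).

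The 32 cell cycle genes included 27 that were tested. Among them 4 rose and 9 fell. Over those tested the median log2 fold change was -0.15. A fit with no block called 2 and 2 of them, and one with the scaling undone 1 and 17. Mki67, a marker of dividing cells, rose from 9.91 ± 2.68 to 32.6 ± 9.82 FPKM (1.6 ± 0.26). Cdk1, the mitotic kinase, fell from 3.96 ± 0.722 to 1.86 ± 0.57 FPKM (-0.80 ± 0.13), and Ccnd1 (cyclin D1) fell from 9.56 ± 1.74 to 5.51 ± 1.3 FPKM (-0.70 ± 0.09). Top2a (4.37 ± 1.32 FPKM in Media and 3.97 ± 1.87 in LPS) and Ccnb2 (4.76 ± 0.996 FPKM in Media and 4.06 ± 0.419 in LPS) missed the test. Genes of the unfolded protein and ATF4 response had 25 of 25 members tested, with 8 higher and 5 lower. That is 32% and 20%, against 19.0% and 18.1% of all genes tested. A median log2 fold change of 0.12 was found over those tested. The calls became 6 and 2 when the replicate block was dropped and 3 and 11 when the scaling was undone, where the median was -0.21. The chaperone Hspa5 (BiP) rose from 396 ± 94.7 to 665 ± 77.4 FPKM (0.77 ± 0.12, but 0.16 and no longer called after quantile normalization), and Ddit3 (CHOP) fell from 129 ± 20.4 to 76 ± 10.5 FPKM (-0.76 ± 0.09). Measured levels allowed a test of 25 of the 25 LXR targets and cholesterol synthesis genes. Of these, 4 rose and 4 fell, with a median log2 fold change of -0.07. Without the block the counts were 1 and 1, and without the scaling 0 and 13. These shares, 16% in each direction, lie near the 19.0% and 18.1% of all genes tested. Abcg1, a sterol exporter, fell from 26.3 ± 5.78 to 14.7 ± 2.61 FPKM (-0.79 ± 0.12). The lipid droplet protein Plin2 rose from 1114 ± 106 to 1521 ± 189 FPKM (0.45 ± 0.11, but -0.31 after quantile normalization). Apoe missed the test at 1500.2 ± 238 FPKM in Media and 1325 ± 127 in LPS.

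Few members of the respiratory chain and ribosome lists passed the test. A list of 42 respiratory chain subunits had 42 members tested. Their median log2 fold change was -0.04, and 2 rose and 4 fell. Dropping the block changed the counts to 0 and 1, and undoing the scaling to 0 and 26. Of 53 cytosolic ribosomal protein genes, 52 were tested. In LPS 2 rose and 0 fell, and the median log2 fold change of those tested was 0.11. The unblocked fit called 1 and 0, and the fit with the scaling undone 0 and 5, where the median was -0.21. The pairs disagreed for this list, with medians of 0.08, 0.63, 0.16 and -0.49. Ribosomal protein genes have many processed copies in the genome, and took 0.34% to 0.48% of reads, so their counts are uncertain.

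Some markers of other cell types were also called. Of 11 astrocyte markers 5 were tested; their sum was 55.1 to 105 FPKM in Media and 124 to 250 in LPS. Most of it was Gja1 (connexin 43), a gap junction protein, which had 49.6, 47.6, 74.6 and 70.7 FPKM in Media 1 to 4 and 159, 109, 202 and 225 FPKM in LPS 1 to 4, without overlap (1.48 ± 0.10, adjusted p = 4.9e-05). Of the other astrocyte markers tested, Slc1a3 rose with the block (0.32 ± 0.10, adjusted p = 0.0409, and 0.762 with no replicate block). With the scaling undone it was at 0.10 and missed the test. Gfap (1.0 ± 0.291 FPKM in Media and 0.885 ± 0.689 in LPS), Sox9 (1.72 ± 1.09 FPKM in Media and 2.19 ± 1.61 in LPS) and Sparcl1 (9.89 ± 5.5 FPKM in Media and 10.6 ± 5.68 in LPS) missed the test. Of 3 oligodendrocyte markers tested 2 fell, Mbp from 8.16 ± 1.7 to 4.2 ± 1.49 FPKM (-0.85 ± 0.12) and Cspg4 from 2.72 ± 1.24 to 0.981 ± 0.332 FPKM (-0.86 ± 0.13), with sums of 17.2 to 24.2 FPKM in Media and 14.0 to 16.8 in LPS. Endothelial markers did not pass the test (9 tested, 0 called) and their sums overlapped, at 34.8 to 172 FPKM in Media and 35.7 to 199 in LPS. Neuron markers summed to 3.15 to 18.9 FPKM in Media and 3.74 to 26.6 in LPS, with 3 tested and 0 called. Lymphocyte and erythroid markers were at or near 0, with sums of at most 4.17 FPKM. The B cell receptor chain Cd79b, the only lymphocyte marker tested, had 1.73, 3.27, 1.72 and 1.21 FPKM in Media 1 to 4 and 0.814, 0.476, 0.921 and 0.152 FPKM in LPS 1 to 4, and was called lower (-0.89 ± 0.18, adjusted p = 0.00792). It was under 1 FPKM in every LPS library and passed the filter through Media alone. Of 7 monocyte markers tested, Ly6c2 (0.70 ± 0.16, adjusted p = 0.014, and 0.676 with no replicate block), Plac8 (0.55 ± 0.15, adjusted p = 0.0225, and 0.622 with no replicate block) and Chil3 (0.46 ± 0.13, adjusted p = 0.033, and 0.858 with no replicate block) rose. Of 7 neutrophil markers tested, S100a8, Camp (0.53 ± 0.15, adjusted p = 0.0317, and 0.839 with no replicate block) and Ngp (0.43 ± 0.11, adjusted p = 0.0225, and 0.886 with no replicate block) rose. With no replicate block 0 of these monocyte and neutrophil markers were called. Camp, Ngp and Chil3 also missed the test with the scaling undone. Of 10 border macrophage markers, Cd163 rose (0.61 ± 0.15, but 0.31 and no longer called with the scaling undone), and Pf4, Lyve1 (-0.52 ± 0.08, adjusted p = 0.00206, and 0.0777 with no replicate block) and Folr2 (-0.23 ± 0.07, adjusted p = 0.0395, and 0.542 with no replicate block) fell with the block. The part of these cells in any result was not tested.

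The size of the response varied between the pairs of libraries. The median log2 difference over the cytokine list was 1.48 in pair 1, 1.51 in pair 2, 2.08 in pair 3 and 2.75 in pair 4, and over the chemokine list 1.57, 1.81, 2.08 and 2.16. Interferon-inducible GTPases had medians of 2.10, 1.77, 2.00 and 2.59, and antiviral genes 1.57, 1.76, 1.4 and 2.00. Pairs 1 and 2 had the smaller cytokine values, and pair 3 the smallest value for antiviral genes. The cytokine medians include Il12b, Il23a, Csf2 and Il19, which passed the filter through LPS alone. Across all genes tested, the differences of 1 pair correlated with those of another at r = 0.67 (pairs 2 and 4) to 0.87 (pairs 1 and 4), a description over genes, which are not independent replicates.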

How the data were processed

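Values were FPKM in 1 deposited table of 14541 genes by symbol, made by the authors from stranded poly(A) libraries (100 ng RNA, paired reads of 100 bp, per the labels' protocols). Per the submitters' processing notes, the genome was mm10 and the tools, listed without roles, were Bowtie2 2.3.5.1, edgeR 3.30.3, R 4.0.0, Trimmomatic 0.39, Subread 1.6.3, FastQC 0.11.7 and featureCounts. Neither the annotation nor strand settings are named in the labels. Of the symbols, 22 had become dates.

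Whole reads were recovered from FPKM steps in 100% of rows (within 0.02 of a whole number), which gave depth and the authors' scaling factors. Recovery and the fit were tested on simulated data. Reads cover listed genes only, and counting error is smallest for the deepest libraries.

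Log2(FPKM + 1) was fitted with limma 3.58.1 in R 4.3.3 (mean-variance trend, replicate number as block) on 4 LPS and 4 Media libraries for genes that reached 1 FPKM in at least 4 of them. Benjamini-Hochberg adjustment ran over all genes tested, and calls needed an adjusted p under 0.05. Groups and numbers came from sample titles. Column names of the deposited table join same-numbered libraries under 1 group label, and deviations from group means correlated at 0.228 to 0.780 in every same-numbered pair, so numbers were taken to pair the libraries. Different numbers gave -0.592 to 0.533, and number 4 did not pair best (LPS 4 with Media 3 at 0.533, LPS 3 with Media 4 at 0.507).

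Members, lists and tests were chosen with earlier results of these data known. Named genes were the 20 largest called rises and falls without overlap and with a mean of at least 5 FPKM in 1 group (unnamed gene models and, as a later addition, small RNA genes were skipped), up to 5 called members per direction and up to 3 abundant uncalled members of each list, the LPS receptor list, the highest marker of each other cell type and genes under 0.5 FPKM in every Media but at least 5 FPKM in every LPS library; not all are printed, and a few others are. Alternatives were pseudocounts of 0.1 and 5, no filter, at least 5 FPKM, no block, no trend, all 12 libraries, scaling undone, upper quartile, quantile, voom on recovered reads, a minimum log2 change of 1 and leaving out each number. Promoter windows came from RefSeq GRCm38.p6. In GENCODE M21, 5 genes named (Cfb, Ptger1, S100a4, Folr2 and Mir7050) shared at least 50% of exonic bases with another gene, so their reads are uncertain. Figures were drawn with matplotlib 3.10.9.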

Additional observations from a re-analysis of the deposited data

Results flagged for a closer look

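Library values far from the other 3 of their group were looked for in the 274 genes named, by a gap to the nearest library that passed Dixon's 95% critical value for its share of the range of the group. This marked 33 of the 548 groups of 4, or 6.02%, and chance alone marks about 1 in 20.

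Media 2 was the far library most often. It was high for Lcn2 (128 FPKM against 3.45 to 4.53), Hp (24.0 against 1.64 to 2.81), S100a8 (501 against 16.4 to 20.8), Fpr2 (12.4 against 2.64 to 3.77), Retnlg (13.3 against 0.559 to 1.63) and Arid5a (13.1 against 9.34 to 9.86). It was low for Ctsc (145 against 166 to 170 FPKM), Fas (4.67 against 10.1 to 11.1), Ifi27l2a (10.1 against 20.4 to 22.1), Nfkbia (87.1 against 113 to 118) and Rel (27.1 against 32.9 to 34.1). LPS 2 was far from its group for S100a8 (624 against 32.8 to 49.5), Retnlg (9.92 against 0.202 to 0.802), Aim2 (39.9 against 26.6 to 28.5) and Oasl1 (1088 against 1585 to 1591). The neutrophil and monocyte markers were high in both libraries numbered 2, in FPKM: Camp (147 in Media against 1.24 to 4.16, and 146 in LPS against 3.23 to 6.35), Ngp (399.5 in Media against 5.19 to 6.18, and 424 in LPS against 8.02 to 9.17), Chil3 (68.4 in Media against 0.575 to 1.42, and 72.2 in LPS against 1.09 to 2.66), Ly6c2 (15.8 in Media against 0.575 to 1.51, and 32.1 in LPS against 0.68 to 3.17) and Plac8 (6.82 in Media against 0.317 to 0.76, and 9.42 in LPS against 0.981 to 1.59).

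LPS 1 was low for Ccl3 (3302 against 6034 to 6203 FPKM) and Olr1 (2.69 against 10.4 to 10.9), and high for C5ar2 (1.71 against 1.05 to 1.12). Sall1 was high in both libraries numbered 1, at 20.3 FPKM in Media (others 9.56 to 11.0) and 17.1 in LPS (others 9.49 to 10.1). Media 1 was high for Tlr2 (122 against 54.1 to 58.8), Media 3 for Tgtp2 (6.44 against 2.33 to 2.94) and Media 4 for Ftl1 (7944 against 7454 to 7538).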

How the results depend on the processing

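The counts of 2069 genes higher and 1967 lower came to 1274 and 1002 with no replicate block, 1006 and 5762 with the scaling factors undone, and 524 and 124 when an absolute log2 fold change of at least 1 was asked for, which counts fewer genes by construction. Leaving out 1 number at a time gave 1424 to 2042 higher and 1081 to 1957 lower. All other alternatives stayed within 1.5 times of these counts: voom on recovered reads gave 2246 and 2089, upper quartile scaling 1698 and 2639, and quantile normalization 1607 and 2328. Among named genes called, sign changes were limited to Hmox1 (-0.029 with the scaling undone, -0.083 after quantile normalization), Fth1 (-0.034) and Plin2 (-0.31), the last pair after quantile normalization; the cause was not tested. Calls of small changes depended on a setting: the block was needed for Tlr4, Irf7, Lcn2, Hp, S100a8 and 24 other named genes, and Cd180, Cd86, P2ry12, Psma6, Plin2, Ptger4, Slc1a3, Camp, Cd163, Chil3 and Ngp were lost with the scaling undone. Hspa5, Cd14, Cd86, Psma6, S100a8, Camp, Chil3 and Ngp were lost after quantile normalization. Slc1a3, Tpi1, P2ry12, Pf4, Csf1r, Ctsd, Fcgr1, Ptger4, Psma6, Plin2, Zfp36l2, Hmox1, Camp, Cd163, Chil3, Folr2, Ly6c2, Mir7050, Ngp and Plac8 lost their call when at least 1 number was left out. The replicate block is the main fit; LPS 4 deviated more closely with Media 3 (0.533) than with Media 4 (0.228). Depth limits genes near 1 FPKM, which rest on few reads.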

Other observations

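Outside the lists, 3 genes chosen after their values were seen also rose from low levels. Hdc, the enzyme that makes histamine, had 1.35, 4.17, 2.96 and 2.3 FPKM in Media 1 to 4 and 17.1, 23.8, 36.7 and 40.4 FPKM in LPS 1 to 4, with a log2 fold change of 3.03 ± 0.20, adjusted p = 5.9e-05. Has1, a hyaluronan synthase, had 0.433, 0.617, 0.879 and 0.372 FPKM in Media 1 to 4 and 7.06, 11.4, 23.2 and 21.9 FPKM in LPS 1 to 4, and rose with a log2 fold change of 3.29 ± 0.25, adjusted p = 9.4e-05. H2-M2, a non-classical class I gene, had 1.36, 0.608, 0.505 and 1.07 FPKM in Media 1 to 4 and 15.8, 25.2, 13.6 and 14.1 FPKM in LPS 1 to 4, and its change was 3.25 ± 0.20, adjusted p = 3.9e-05. In each of them every LPS library lay above every Media library. Has1 was under 1 FPKM in every Media library and passed the filter through LPS alone, so that it differs follows from the filter.

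Of the 3671 genes left out of the test, 257 had a mean of at least 1 FPKM in 1 group. Retnlg, a neutrophil gene, was one of them, with 0.559, 13.3, 0.605 and 1.63 FPKM in Media 1 to 4 and 0.802, 9.92, 0.202 and 0.697 FPKM in LPS 1 to 4, high in both libraries numbered 2 only.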
